A study of Caenorhabditis elegans with 10 samples.

Results

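Larvae of the nematode Caenorhabditis elegans that hatch without food stop in the first larval stage, L1, and this comparison set L1 larvae fed for 6 h against L1 larvae still in that arrest. The libraries were chosen by their titles, which gave 3 starved libraries and 3 libraries after 6 h of feeding, 6 of the 10 libraries of the series. The other 4 libraries were taken after 1 h and 3 h of feeding and enter here through the estimate of the spread and as time points beside the values. Both groups were whole animals of N2, the wild-type laboratory strain, with no transgene, mutation or drug. Eggs freed by bleaching hatched in medium with no food at 20 °C for 24 h, so that the starved larvae had spent about 12 h in arrest. The fed larvae came from the rest of such cultures and received HB101, an E. coli strain used as worm food, at 25 mg/mL. No unfed larvae of the later time were sampled, so that feeding cannot be told apart from 6 h of added age. The submitters call the libraries biological replicates but name no separate cultures, and p values therefore measure the spread between these libraries.

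In L1 arrest, larvae live on stored fat and carbohydrate, cell divisions wait, and low insulin-like signalling keeps the transcription factor DAF-16 active, which turns on genes for stress resistance. Food restarts growth, feeding and, later in the stage, the molt, in which the epidermis builds a new cuticle under the old one. These are the textbook processes against which the gene groups below were ordered: stored fuel and stress, the protein-making machinery, the gut, the cuticle, cell division, and the nervous system.

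The data were counts of polyadenylated RNA reads per exonic bin, a bin being a stretch of exon used by the same set of transcripts, and the count of a gene was the sum over its bins. Summed counts were 22433271, 38607167 and 22481641 in the starved libraries and 20348550, 26588753 and 22932266 at 6 h. Levels are given as CPM, the edgeR measure of count relative to library size after TMM scaling, and as mean ± SD over 3 libraries. Differences are log2 fold changes ± SE of 6 h minus starved, and a gene was called where edgeR's quasi-likelihood test over all genes gave a Benjamini-Hochberg adjusted p under 0.05. The log2 CPM of all genes correlated at 0.973 to 0.978 between starved libraries, at 0.971 to 0.973 between the libraries at 6 h, and at 0.868 to 0.884 across the groups. The share of reads falling outside bins was 10.4% ± 0.913 in starved and 8.54% ± 0.209 in fed libraries (exact permutation test, two-sided, p = 0.1, the smallest that 3 against 3 libraries allow).

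Of 13226 gene units tested, 6873 were called (52.0%), with 3570 higher (27.0%) and 3303 lower (25.0%) at 6 h. Library ranges of the groups did not overlap for 7312 units (55.3%), and 6440 units were both called and separate. A 2-fold difference was passed by 1926 of the higher and 2035 of the lower units, an 8-fold one by 198 and 291, and a 32-fold one by 50 and 56. The median log2 fold change over all units was -0.04, with the quartiles at -0.70 and 0.61. The split of directions depended on scaling. Library totals alone gave 2345 higher and 4959 lower with a median of -0.37, and upper-quartile factors gave 2814 higher and 4368 lower with a median of -0.24. A direction given here is one taken against the middle of all units.

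Among named genes with mean log2 CPM at or over 4, the 12 largest rises ran from col-149 to aagr-4. They were chosen to have groups that do not overlap, so their separation is a condition of the choice. col-149, a cuticle collagen gene (B0024.1, chromosome V, 10291667 to 10292839 in the WS210 build), stood at 3.53, 4.34 and 4.65 CPM in the starved libraries and at 967, 1366 and 1603 CPM at 6 h. The groups were far apart, with a log2 change of 8.29 ± 0.33 (adjusted p = 2.92e-10). sym-1, which encodes a secreted leucine-rich repeat protein of the apical extracellular matrix (C44H4.3, chromosome X, 14581577 to 14584291), stood at 3.87, 9.48 and 3.41 CPM against 390, 664 and 780 CPM. Its change was 6.74 ± 0.43 (adjusted p = 5.47e-08), and the highest starved library lay well under the lowest fed one. noah-1 and noah-2, which encode zona pellucida domain proteins of the embryonic and larval surface, went up, noah-1 from 5.32 ± 1.64 to 206 ± 58.05 CPM and noah-2 from 3.82 ± 2.16 to 188 ± 45.7 CPM. fbn-1, a fibrillin-like matrix gene, rose from 2.55 ± 1.17 to 125 ± 45.7 CPM. tba-8, an alpha-tubulin gene, rose from 4.84 ± 1.55 to 140.3 ± 10.9 CPM, and fkb-5, which encodes a peptidyl-prolyl isomerase of the FK506-binding family, from 10.2 ± 0.861 to 232 ± 36.1 CPM.

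The remaining genes among these 12 rises are tied by name to energy transfer, detoxification, digestion and defence. argk-1, an arginine kinase gene whose product stores phosphate-bond energy (F44G3.2, chromosome V, 16103868 to 16106114), stood at 1.53, 3.42 and 1.71 CPM in starved and at 403, 584 and 354 CPM in fed libraries, a change of 7.61 ± 0.33 (adjusted p = 6.60e-10). ugt-22, a UDP-glucuronosyltransferase gene, rose from 3.38 ± 1.096 to 309 ± 47.5 CPM. ilys-5, one of the invertebrate-type lysozyme genes, rose from 2.68 ± 1.46 to 134.6 ± 22.1 CPM. irg-4, named as an infection response gene, rose from 3.36 ± 1.52 to 109 ± 28.5 CPM, and aagr-4, of the acid alpha-glucosidase family, from 5.11 ± 1.74 to 113 ± 14.5 CPM.

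**Figure D1:**
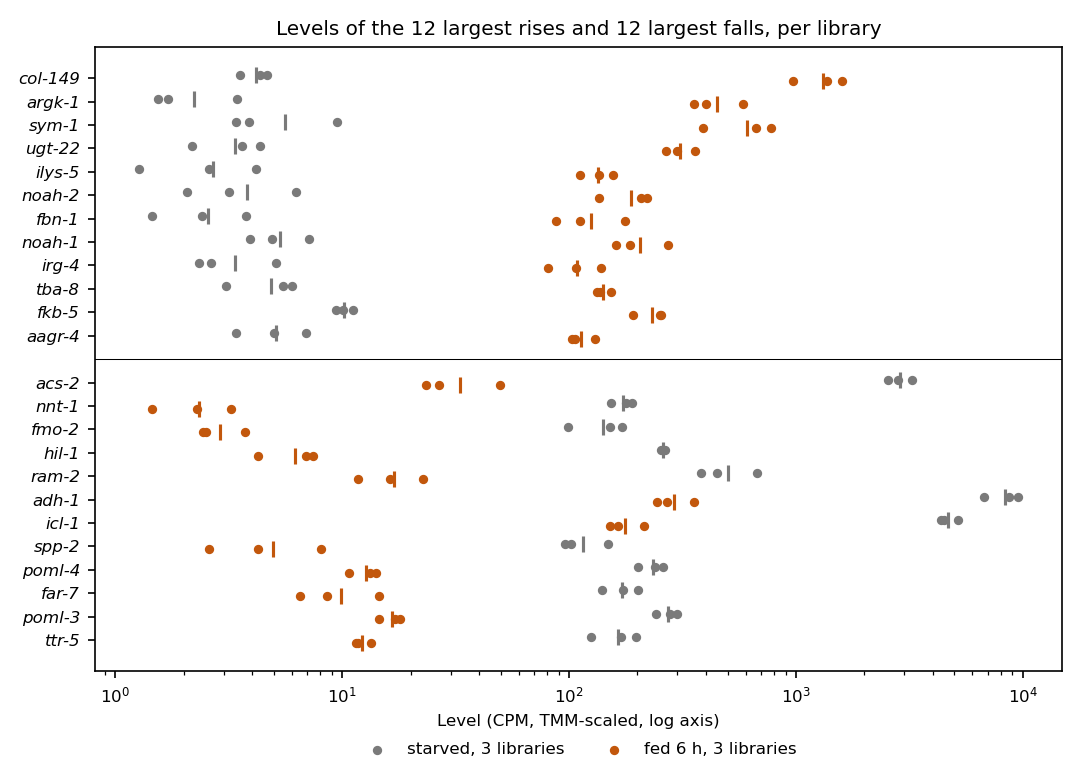
Level of each of the 12 largest rises (upper block) and 12 largest falls (lower block) on a log CPM axis, with 1 point per library, 3 per group, and a tick at the group mean. The genes were chosen to have groups that do not overlap, and col-149 moves from about 4.17 to 1312 CPM on average while acs-2 moves from 2878 to 33.1 CPM.

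The 12 largest falls, chosen by the same conditions, held several enzymes of fuel metabolism. acs-2, an acyl-CoA synthetase gene that prepares fatty acids for oxidation (F28F8.2, chromosome V, 15567367 to 15569864), stood at 2827, 2554 and 3253 CPM in starved libraries and at 26.6, 23.4 and 49.4 CPM at 6 h, a change of -6.44 ± 0.31 (adjusted p = 1.48e-09). adh-1, an alcohol dehydrogenase gene (K12G11.3, chromosome V, 11888214 to 11889628), stood at 6740, 9531 and 8671 CPM against 243, 271 and 354 CPM, a change of -4.84 ± 0.24. icl-1, for the bifunctional enzyme of the glyoxylate cycle with isocitrate lyase and malate synthase activity, stood at 4339, 5167 and 4483 CPM against 151, 165 and 215 CPM. These 3 genes were abundant in starved larvae. nnt-1, the gene of the mitochondrial transhydrogenase that makes NADPH, fell from 174 ± 18.3 to 2.33 ± 0.891 CPM, and fmo-2, a flavin monooxygenase gene, from 140.4 ± 37.3 to 2.89 ± 0.736 CPM.

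The other 7 large falls were hil-1, ram-2, spp-2, far-7, ttr-5 and 2 paralogs, poml-3 and poml-4. hil-1, a linker histone H1 gene, was nearly equal in the starved libraries at 265, 254 and 260.1 CPM and stood at 6.90, 4.25 and 7.42 CPM at 6 h, a change of -5.39 ± 0.21 (adjusted p = 2.92e-10). ram-2 fell from 503 ± 153 to 16.9 ± 5.48 CPM. spp-2, of the saposin-like family of antimicrobial and lipid-binding proteins, fell from 116 ± 28.9 to 4.97 ± 2.81 CPM, and far-7, of the fatty acid and retinol binding family, from 171 ± 31.4 to 9.86 ± 4.11 CPM. ttr-5, a transthyretin-related gene, fell from 164 ± 36.8 to 12.2 ± 0.995 CPM. poml-3 and poml-4, paraoxonase-like genes, fell from 274 ± 29.2 to 16.5 ± 1.79 CPM and from 233 ± 28.9 to 12.7 ± 1.73 CPM, and reads shared between near-identical copies could have been split between this pair. In the authors' deposited FPKM table, made from the same libraries and pooled, acs-2 went from 1925 to 17.4 and col-149 from 6.78 to 1466.

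The means at 1 h and 3 h, which are set against the same starved libraries, show that the named genes differed in timing. acs-2 was already at 42.8 CPM after 1 h and icl-1 at 197 CPM, while poml-3 stood at 138 CPM after 1 h and 13.9 CPM after 3 h. argk-1 and ugt-22 stood at 100.1 and 81.0 CPM after 1 h. col-149 was at 2.61 CPM after 1 h and 70.0 CPM after 3 h, noah-2 at 4.07 and 8.64 CPM, and tba-8 at 5.48 and 30.01 CPM, so that most of their level at 6 h came after the sample at 3 h.

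**Figure D2:**
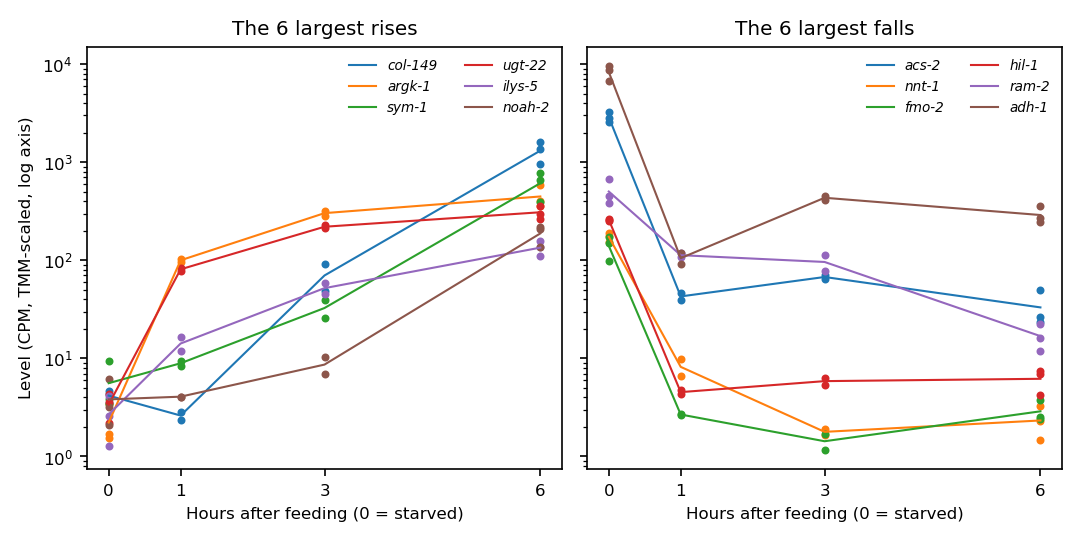
Level on a log CPM axis against hours after feeding for the 6 largest rises (left) and 6 largest falls (right), with 1 point per library (3, 2, 2 and 3 libraries) and lines through the group means. acs-2, adh-1, nnt-1, fmo-2 and hil-1 are down by 1 h and remain low at 6 h, while sym-1 and noah-2 climb most steeply between 3 h and 6 h and col-149 climbs from 1 h on.

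Genes of carbohydrate metabolism moved both ways. Of 12 genes of the glyoxylate cycle, gluconeogenesis and trehalose metabolism, 6 fell and 1 rose, with a median of -0.37 beside -0.04 for all units. After icl-1, the trehalose synthase gene tps-1 fell from 299 ± 36.9 to 88.0 ± 9.73 CPM, while fbp-1, the gluconeogenic fructose bisphosphatase gene, rose from 165 ± 16.7 to 259 ± 15.2 CPM. Its call was lost with library totals alone (adjusted p = 0.0752). Of 15 glycolysis genes, 7 fell (46.7%, beside 25.0% of all units) and 4 rose (26.7%, near the 27.0% of all units). Their median was -0.06, close to that of all units. aldo-2, an aldolase gene, stood at 3798, 4082 and 3924 CPM against 904, 1117 and 929 CPM, with no overlap, and pyk-2, a pyruvate kinase gene, fell by 1.29 ± 0.16 on the log2 scale. The 4 that rose were tpi-1 and ldh-1, for triose phosphate isomerase and lactate dehydrogenase, and pgk-1 and pfk-1.1, for phosphoglycerate kinase and phosphofructokinase, the latter pair chosen after their values were seen. Their changes lay between 0.58 and 0.70, and those of tpi-1 and ldh-1 lost their calls with library totals alone (adjusted p = 0.128 and 0.103).

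Fat metabolism and the citric acid cycle moved both ways. Of 45 fatty acid oxidation and lipolysis genes, 18 rose (40.0%) and 11 fell (24.4%), beside 27.0% and 25.0% of all units. Their median of 0.14 turned to -0.20 with library totals alone and -0.07 with upper-quartile factors. hacd-1, a 3-hydroxyacyl-CoA dehydrogenase gene, fell from 864 ± 238 to 107 ± 45.5 CPM, and acdh-13, an acyl-CoA dehydrogenase gene, rose from 23.3 ± 0.709 to 90.5 ± 13.6 CPM. Of 22 genes for making and desaturating fatty acids, 10 rose (45.5%) and 6 fell (27.3%), with a median of 0.26 that turned to -0.07 with totals alone. fasn-1, the fatty acid synthase gene, stood at 178, 200.0 and 122.6 CPM in starved and at 766, 1360 and 943 CPM in fed libraries, a change of 2.62 ± 0.24 (adjusted p = 7.87e-07). The desaturase genes fat-3 and fat-4, for polyunsaturated fatty acids, fell from 815 ± 200 to 224 ± 7.88 CPM and from 1056 ± 110 to 346 ± 24.3 CPM. Of 19 citric acid cycle genes, 7 rose (36.8%) and 3 fell (15.8%), with a median of 0.22 that turned to -0.12 with totals alone. sucg-1, a succinyl-CoA ligase subunit gene, rose from 12.97 ± 0.436 to 75.8 ± 9.48 CPM. aco-2, the mitochondrial aconitase gene, fell from 1644 ± 278 to 704 ± 131 CPM, and idhg-2 and idha-1, isocitrate dehydrogenase subunit genes, were the others that fell. The call of idha-1 was lost with the 6 libraries alone, without replicate 1 and without replicate 2 at 6 h (adjusted p = 0.0510, 0.0987 and 0.0733).

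Stress and autophagy genes were mostly lower. Of 26 stress genes tied to DAF-16, 16 fell (61.5%) and 5 rose (19.2%), beside 25.0% and 27.0% of all units, with a median of -1.22. Their summed level was 2847 to 3720 CPM in starved and 2433 to 2975 CPM in fed libraries, so the ranges overlapped. Beside hil-1, dct-1, which encodes a mitophagy receptor, stood at 101, 115 and 168 CPM against 16.1, 12.1 and 17.7 CPM, a change of -3.07 ± 0.21 (adjusted p = 5.22e-08). The metallothionein gene mtl-1 and the manganese superoxide dismutase gene sod-3, both chosen after their values were seen, fell from 52.5 ± 15.8 to 0.778 ± 0.286 CPM and from 22.7 ± 2.88 to 0.704 ± 0.625 CPM. daf-16 itself changed by -0.70 ± 0.22 (adjusted p = 0.0155). The 5 that rose were the ferritin gene ftn-2, from 373 ± 60.9 to 836 ± 58.8 CPM, sesn-1, a sestrin gene, and dod-17, dod-19 and dod-24, named as downstream of DAF-16, which go down when DAF-16 is active. Of 26 autophagy genes, 18 fell (69.2%) and 1 rose (3.85%), with a median of -0.66. Their summed level went from 2603 to 2880 CPM in starved to 1181 to 1292 CPM in fed libraries. lgg-1, which encodes the ubiquitin-like protein of autophagosome membranes, stood at 632, 517 and 755 CPM in starved and at 157, 136 and 163 CPM in fed libraries, and atg-18 fell from 338 ± 63.0 to 84.9 ± 11.3 CPM. The 1 that rose, epg-3, lost its call with library totals alone (adjusted p = 0.0725).

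The insulin-like peptides split evenly. Of 20 tested genes, 7 rose and 7 fell (35.0% each), beside 27.0% and 25.0% of all units, with a median of -0.31. daf-28, an agonist of the insulin-like receptor, stood at 4.02, 7.51 and 6.70 CPM in starved and at 43.5, 45.6 and 65.9 CPM in fed libraries, a change of 3.08 ± 0.24 (adjusted p = 1.22e-07). ins-35 rose by 1.07 ± 0.22, and ins-17 fell from 87.7 ± 27.9 to 35.05 ± 9.70 CPM.

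The machinery that makes proteins was mostly higher. Of 28 ribosome biogenesis genes, 26 rose (92.9%) and 0 fell, beside 27.0% and 25.0% of all units, with a median of 1.56. fib-1, the fibrillarin gene for methylating ribosomal RNA, stood at 173, 176 and 171 CPM in starved and at 1406, 1986 and 1275 CPM in fed libraries, a change of 3.17 ± 0.20 (adjusted p = 2.33e-08). nol-58, of the same small nucleolar particles, rose from 109 ± 23.8 to 911 ± 212 CPM. For the cytosolic ribosome, 65 of 68 protein genes rose (95.6%), none fell, and those not called were rpl-31, rpl-39 and rps-20. Their median of 0.94 was smaller than that of the biogenesis genes, but their summed level went from 125530 to 168480 CPM in starved libraries to 252520 to 298180 CPM at 6 h. rps-14 stood at 9603, 3034 and 8845 CPM against 19695, 26211 and 17740 CPM, so that the second starved library was low, and the groups did not overlap.

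Translation factors and the enzymes that charge tRNAs rose as well. Of 37 translation factor genes, 32 rose (86.5%) and 1 fell (2.70%), beside 27.0% and 25.0% of all units, with a median of 1.45. inf-1, the gene of the RNA helicase eIF4A, stood at 126, 168 and 157 CPM against 1048, 1229 and 1016 CPM, and erfa-1, for the release factor that ends translation, rose from 64.2 ± 6.63 to 386 ± 65.3 CPM. The factor that fell, ife-5, an eIF4E isoform of the germ line, went from 4.66 ± 0.914 to 2.78 ± 0.627 CPM. Its call was lost in 6 alternatives. Of 29 aminoacyl-tRNA synthetase genes, 24 rose (82.8%) and 0 fell, with a median of 1.09. Among those that rose were fars-1, from 34.5 ± 2.25 to 176 ± 23.5 CPM, and nars-1, from 49.6 ± 4.37 to 243 ± 40.4 CPM.

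Genes that process RNA, serve nuclear transport, and fold, sort and break down proteins were also mostly higher. Of 59 spliceosome and splicing genes, 45 rose (76.3%) and 2 fell (3.39%), beside 27.0% and 25.0% of all units, with a median of 0.93. eftu-2, a core GTPase of the spliceosome, rose from 88.7 ± 12.9 to 345 ± 26.2 CPM. uaf-1, for a protein that binds the 3′ splice site, fell from 467 ± 75.6 to 245 ± 29.8 CPM, as did asd-1, a regulator of alternative splicing. Of 39 nuclear pore and transport genes, 33 rose (84.6%) and 2 fell (5.13%), with a median of 1.01. ran-1, the small GTPase of nuclear transport, stood at 148, 157 and 193 CPM against 850.4, 862 and 712 CPM. The genes that fell were those for export, xpo-1 for the exportin CRM1, from 418 ± 47.4 to 247 ± 57.7 CPM, and nxf-1 for messenger RNA export, from 204 ± 6.11 to 126 ± 6.49 CPM.

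Among 54 secretory pathway genes, 44 rose (81.5%) and 0 fell, beside 27.0% and 25.0% of all units, with a median of 1.41. pdi-2, a protein disulfide isomerase that also serves collagen prolyl hydroxylation, stood at 696, 720 and 735 CPM in starved and at 4076, 5427 and 5876 CPM in fed libraries, a change of 2.84 ± 0.20 (adjusted p = 5.85e-08). Of 69 heat shock and chaperone genes, 45 rose (65.2%) and 5 fell (7.25%), with a median of 0.91. hsp-3, for an endoplasmic reticulum chaperone of the BiP kind, rose from 263 ± 70.2 to 1481 ± 318 CPM, and dnj-2, a DnaJ family gene, from 8.32 ± 2.11 to 59.8 ± 6.02 CPM. The 5 that fell were the small heat shock genes sip-1, hsp-12.3, hsp-12.6 and hsp-16.20 and the DnaJ gene dnj-4. sip-1 stood at 35.0, 97.4 and 114 CPM against 10.5, 17.2 and 19.2 CPM, with the first starved library low. Of 29 proteasome genes, 28 rose (96.6%) and 1 fell (3.45%), with a median of 1.45. The core subunit gene pas-4 rose from 56.4 ± 10.5 to 206.7 ± 19.6 CPM. rpn-6.2 fell from 6.85 ± 2.77 to 2.91 ± 0.718 CPM, and leaving out starved replicate 1 ended that call (adjusted p = 0.0558).

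Mitochondrial genes differed by function. Of 59 mitochondrial ribosomal protein genes, 53 rose (89.8%) and 3 fell (5.08%), beside 27.0% and 25.0% of all units, with a median of 1.37. Of 19 import genes, 17 rose (89.5%) and 1 fell (5.26%), with a median of 1.75. mrps-22 stood at 18.6, 14.7 and 11.9 CPM against 84.2, 108 and 68.8 CPM, and mppa-1, for the protease that removes import signals, rose from 12.4 ± 2.05 to 81.3 ± 11.6 CPM. The genes that fell were mrps-11, from 148 ± 35.1 to 49.4 ± 2.72 CPM, mrpl-41, mrpl-55 and, among import genes, timm-23, whose call was lost in 7 alternatives. By contrast, of 46 oxidative phosphorylation genes 20 rose (43.5%), 3 fell (6.52%) and 23 were not called. Their median of 0.18 turned to -0.14 with totals alone and -0.02 with upper-quartile factors. Their summed level was 19973 to 24155 CPM in starved and 19842 to 23631 CPM in fed libraries, so the ranges overlapped. cox-11, which helps assemble cytochrome oxidase, rose from 9.66 ± 0.896 to 36.1 ± 7.43 CPM, and ucr-2.3, ucr-2.1 and cox-6A were the members that fell. The libraries of cox-6A overlapped between the groups, and its call was lost in 5 alternatives (adjusted p = 0.0654 to 0.174). That of ucr-2.1 was lost without replicate 1 or 2 at 6 h and without starved replicate 2 (adjusted p = 0.113, 0.0961 and 0.119). Of 19 vacuolar ATPase genes, which acidify gut and other organelles, 11 rose (57.9%) and 0 fell, with a median of 0.50.

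The methionine and one-carbon cycle, which supplies methyl groups, had 15 of 18 genes higher (83.3%) and 1 lower (5.56%), beside 27.0% and 25.0% of all units. The median of these genes was 1.36. cth-1, for cystathionine gamma-lyase, stood at 31.3, 29.4 and 32.7 CPM in starved and at 540.5, 630.4 and 677 CPM in fed libraries, a change of 4.30 ± 0.18 (adjusted p = 3.89e-10). sams-1, for an S-adenosylmethionine synthetase, rose from 463 ± 124 to 3769 ± 962 CPM. The gene that fell, mmcm-1, encodes methylmalonyl-CoA mutase, and leaving out replicate 1 at 6 h ended its call (adjusted p = 0.0531).

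**Figure D3:**
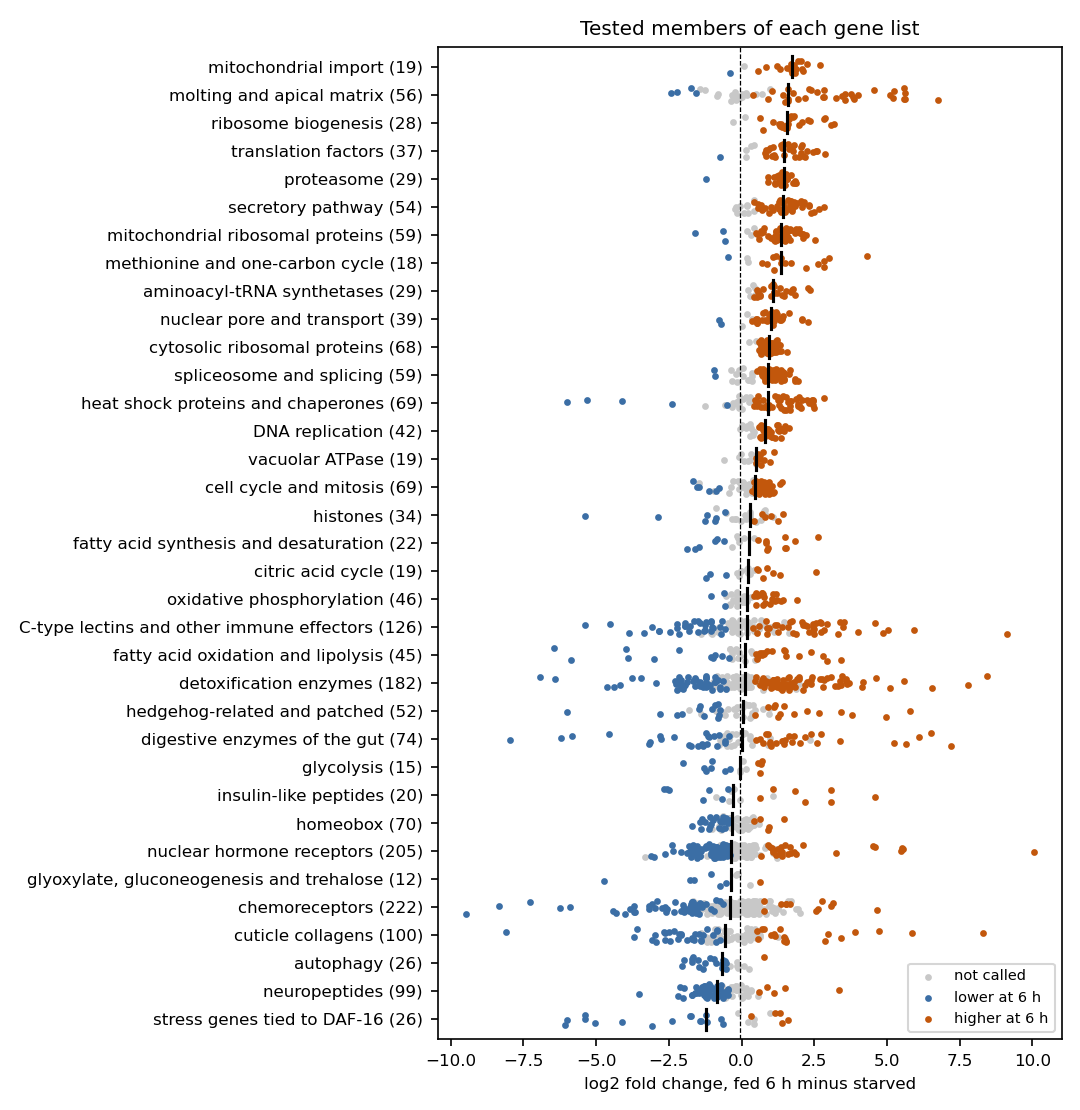
Each point is the log2 fold change (6 h minus starved) of 1 tested gene, coloured by its call, in 35 gene lists of 12 or more tested members, whose number stands in brackets. Black ticks are list medians and the dashed line is the median of all 13226 units, -0.04; ribosome biogenesis, proteasome and secretory genes lie to the right, while neuropeptide, autophagy and DAF-16 stress genes lie to the left.

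Genes of the gut moved both ways. Of 74 digestive enzyme genes, 27 rose (36.5%) and 24 fell (32.4%), beside 27.0% and 25.0% of all units. Their median of 0.02 turned to -0.30 with totals alone and -0.18 with upper-quartile factors. The cathepsin B-like protease gene cpr-5 stood at 19.3, 32.9 and 34.6 CPM against 212, 297 and 395 CPM, while cpz-1, a cathepsin Z gene, fell from 232 ± 63.3 to 33.4 ± 5.63 CPM. Among 182 detoxification genes, 71 rose (39.01%) and 50 fell (27.47%), beside 27.0% and 25.0% of all units. Their median of 0.11 turned to -0.23 with totals alone and -0.10 with upper-quartile factors. ugt-57 rose from 8.86 ± 0.867 to 163 ± 30.2 CPM, and the glutathione transferase gene gst-3 fell from 45.2 ± 13.4 to 9.57 ± 1.97 CPM. Of 126 tested C-type lectins and other immune effectors, 41 rose (32.5%) and 33 fell (26.2%), shares near the 27.0% and 25.0% of all units, with a median of 0.17 that turned negative under the same scalings. Of the 7 intestine markers, 2 rose and 2 fell (28.6% each), near the shares of all units. elt-2 and elt-7, the regulators of gut identity, stood at 24.3 and 25.4 CPM and at 12.0 and 10.3 CPM and were not called. pept-1, the oligopeptide transporter, rose from 64.7 ± 8.83 to 276 ± 49.2 CPM, and act-5, the actin of gut microvilli, from 225 ± 33.6 to 957 ± 168 CPM, while ges-1, a gut esterase, fell from 80.3 ± 9.36 to 24.5 ± 4.27 CPM. ifb-2 fell from 1121 ± 145 to 813 ± 105 CPM. Its call was lost with the 6 libraries alone, without replicate 1 at 6 h and without starved replicate 2 (adjusted p = 0.0776, 0.123 and 0.0938). In whole larvae, fewer cells of a type and less RNA per cell cannot be told apart.

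Most molting and apical matrix genes were higher at 6 h. Of 56 tested, 34 rose (60.7%) and 4 fell (7.14%), beside 27.0% and 25.0% of all units, with a median of 1.59. Their summed level went from 1329 to 1384 CPM in starved to 6261 to 8810 CPM in fed libraries. nhr-23, the nuclear receptor gene that drives molting, stood at 11.04, 12.8 and 14.5 CPM against 115, 108 and 143 CPM, a change of 3.25 ± 0.17 (adjusted p = 4.47e-09). myrf-1, a transcription factor gene, and lin-42, the Period-like timing gene, both chosen after their values were seen, rose, myrf-1 from 50.4 ± 9.25 to 356 ± 39.1 CPM and lin-42 from 2.27 ± 1.14 to 33.3 ± 6.88 CPM. Also chosen after the values were seen, the molting genes mlt-8 and mlt-10 rose, mlt-8 from 0.996 ± 0.381 to 51.4 ± 8.48 CPM and mlt-10 from 3.39 ± 1.12 to 40.9 ± 6.16 CPM, and acn-1, an angiotensin-converting enzyme-like gene, from 2.11 ± 0.975 to 75.8 ± 10.9 CPM. The genes that fell were the lipocalin gene lpr-2, from 90.8 ± 14.7 to 19.6 ± 1.02 CPM, the astacin gene nas-7 and the cuticlin-like genes cutl-17 and cutl-22.

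Collagens went both ways, with more genes called lower than higher and a larger summed level at 6 h. Of 100 tested collagen genes of 106 in the bins, 32 fell and 20 rose, beside 25.0% and 27.0% of all units. Their median was -0.58, while their summed level went from 13593 to 29137 CPM in starved to 32099 to 44049 CPM in fed libraries. col-107 fell from 273 ± 38.1 to 21.1 ± 5.64 CPM and col-80 from 105 ± 30.5 to 12.4 ± 1.08 CPM. col-167 rose from 742 ± 265 to 2133 ± 578 CPM, and its near-identical neighbour col-168 could share its reads. The collagen genes dpy-2, dpy-3, dpy-9 and dpy-10, which build the annular furrows of the cuticle, and rol-8 were chosen after their values were seen. dpy-9 stood at 0.345, 0.242 and 0.640 CPM in starved libraries and at 12.5, 32.3 and 24.0 CPM at 6 h, and dpy-10 rose from 4.51 ± 1.39 to 49.3 ± 9.53 CPM. Of the 3 epidermis markers, elt-1 and elt-3 rose, elt-3 from 73.2 ± 6.64 to 135 ± 21.5 CPM, while nhr-25 stood at 56.2 CPM in both groups. elt-1 lost its call with library totals alone (adjusted p = 0.104). The summed level of these 3 markers was 135 to 164 CPM in starved and 205 to 248 CPM in fed libraries. Its part in the levels of molting and collagen genes was not tested.

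Hedgehog-related and patched-related genes, some of which act in the worm's epidermis, were called about as often as all units. Of 52 tested, 14 rose (26.9%) and 13 fell (25.0%), beside 27.0% and 25.0% of all units, with a median of 0.06 that turned to -0.26 with totals alone and -0.14 with upper-quartile factors. ptr-25 stood at 5.33, 8.26 and 6.998 CPM against 60.8, 74.7 and 87.1 CPM, and ptr-3 fell from 61.8 ± 6.82 to 14.8 ± 1.98 CPM.

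Genes for copying DNA rose without an exception among the called members. Of 42 DNA replication genes, 31 rose (73.8%) and 0 fell, beside 27.0% and 25.0% of all units, with a median of 0.80. mcm-7 and mcm-4, of the replicative helicase, stood at 26.1, 40.1 and 30.7 CPM against 79.2, 121 and 103 CPM and at 31.2, 38.2 and 28.6 CPM against 71.6, 108 and 99.5 CPM. Of 69 tested cell cycle and mitosis genes, 35 rose (50.7%) and 6 fell (8.70%), with a median of 0.45. cdk-1, the mitotic kinase, rose from 21.9 ± 1.75 to 54.8 ± 3.97 CPM and air-1, an Aurora kinase, from 18.6 ± 0.960 to 49.01 ± 2.60 CPM. zyg-11, a substrate receptor of a ubiquitin ligase, fell from 66.99 ± 17.8 to 23.4 ± 3.77 CPM, and the phosphatase gene cdc-14 from 221 ± 24.2 to 102 ± 12.5 CPM. Of 34 histone genes, 6 rose (17.6%) and 7 fell (20.6%), both shares under those of all units, their median of 0.28 turned to -0.04 with totals alone, and reads shared among near-identical copies make their counts uncertain.

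Neuropeptide genes, whose products are signals released by neurons and gut, were mostly lower. Of 99, 63 fell (63.6%) and 5 rose (5.05%), beside 25.0% and 27.0% of all units, with a median of -0.85. Their summed level went from 6995 to 8178 CPM in starved to 3936 to 4790 CPM in fed libraries. flp-33 stood at 44.5, 32.1 and 51.4 CPM against 11.6, 8.56 and 11.9 CPM. The 5 that rose were nlp-23, nlp-24, nlp-25, nlp-31 and nlp-36. nlp-24 rose from 22.5 ± 4.93 to 41.1 ± 4.91 CPM, and nlp-36 lost its call without replicate 1 at 6 h and under 2 scalings.

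Markers of other tissues moved beside these groups, in lists of few genes. Over all units, 25.0% fell and 27.0% rose. Of 8 neuron markers, 4 fell and 0 rose, with a median of -0.65 and a summed level of 2160 to 2836 CPM in starved and 1311 to 1597 CPM in fed libraries. egl-21, a carboxypeptidase that matures neuropeptides, fell from 1366 ± 203 to 716 ± 84.5 CPM, while rab-3 and unc-64, of the synapse, stood at 124 and 115 CPM and at 68.2 and 84.8 CPM and were not called. Of 7 pharynx markers, 5 fell (71.4%) and 0 rose, with a median of -0.66. The pharyngeal myosin genes myo-1 and myo-2 were not called. Of 5 body wall muscle markers, 4 fell and 1, tni-1, rose, a call lost with library totals alone (adjusted p = 0.0566), with a median of -0.64, and myo-3, a myosin heavy chain gene, fell from 528 ± 114 to 168 ± 52.7 CPM. Of 6 germline markers, 2 fell, mes-3 and nos-2 (33.3%, near the share of all units), and pgl-1 and glh-1 were not called. Of 8 oocyte and early embryo markers, 7 fell (87.5%). The summed level of the 8 was 39.2 to 72.3 CPM in starved and 21.4 to 30.4 CPM in fed libraries, and of the yolk genes vit-5 stood at 0.430 and 0.393 CPM. The part of these tissue levels in the results above was not tested.

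The most abundant messages, ranked as CPM per kb of bins, turned from a mixture to ribosomal proteins. In starved larvae the first place was held by ant-1.1, the mitochondrial ATP/ADP carrier gene, at 13452 ± 2227 CPM per kb, followed by rps-14, the myosin light chain gene mlc-2, rpl-17, rpl-29, Y82E9BR.3, rps-5, adh-1, rplp-0 and rpl-5. At 6 h all of the first 10 were ribosomal protein genes, led by rps-14 at 25778 ± 5390 and rplp-0 at 16955 ± 3330 CPM per kb. ant-1.1 stood at rank 32 with 6144 ± 532 CPM per kb, mlc-2 at rank 84, and adh-1 went from rank 8 to rank 525.

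Beyond levels, the exonic bins covered within each gene were compared. The share of a bin is its count as a percent of the count of its gene, and edgeR's diffSpliceDGE tested each bin against the rest of its gene. Of 11772 single genes with 2 or more kept bins, 65 were called (0.552%), against 38 with the 6 libraries alone and 205 with a gene-level F test. Of 82149 bins, 79 were called with a higher share (0.0962%) and 75 with a lower one (0.0913%). For 151 of these 154 the shares of the groups did not overlap, but a test of the same difference had picked them. The matching figure over all bins was not taken. The count of bins also moved with the libraries used, to 89 bins with the 6 libraries alone and 90 without replicate 2 at 6 h. Genes with several annotated transcripts were called in 48 of 4344 cases (1.11%) and genes with a single transcript in 17 of 7428 (0.229%). Bins held by some transcripts of a gene were called in 96 of 13183 cases (0.728%), with 48 higher and 48 lower, and bins held by all in 18 of 26430. First bins held by some transcripts were called higher 11 times and lower 2 times, and last bins of that kind 0 and 8 times. In genes of a single transcript, first bins were called higher 4 times and lower 3 times, and last bins 0 and 7 times. The median share of the last bin, over 5142 single-transcript genes with 4 or more bins, was 23.9%, 19.5% and 18.8% in starved and 19.9%, 16.4% and 17.6% in fed libraries (unpaired exact permutation test, two-sided, p = 0.3), and it was lower at 6 h in each of the 3 same-numbered pairs. Its part in the calls of last bins was not tested.

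Among bins that met the naming limits, the largest shift in share belonged to cdh-10, a cadherin gene with a single annotated transcript (C45G7.5, chromosome IV, minus strand), which held 6 of the 12 bins named by size. At the level of the gene nothing was called, with 21.4 CPM in starved and 26.2 CPM in fed larvae (log2 change 0.29 ± 0.23, adjusted p = 0.317). In starved larvae, however, 97.9%, 97.0% and 96.8% of its count lay in 3 neighbouring bins, the 13th to the 15th from the 5′ end, against 26.0%, 19.3% and 24.6% at 6 h. The 6 tested bins to the 5′ side of these held 1 of 2047 starved bin counts and 654 of 1596 bin counts at 6 h. The 4 tested bins to the 3′ side held 50 and 421. The 3 stretches were drawn after the shares were seen, and the groups did not overlap in any of them. Of the 13 tested bins of its 21, 12 were called. The 6 bins to the 5′ side passed the low-count filter through the libraries at 6 h, so that their calls were partly fixed by the filter. Bin 13 (chromosome IV, 2443220 to 2444343) fell from 67.6% ± 2.38 to 16.9% ± 1.70 (adjusted p = 7.03e-04). Bin 4 (chromosome IV, 2461378 to 2462113) held 0 starved reads, which allows a share of up to 0.147% for counting error only, and 9.76%, 8.22% and 12.9% at 6 h. At 1 h and 3 h the shares of bin 13 were 69.8% and 67.4%, and 74.3% and 76.7%, so that the later pattern appeared after the sample at 3 h. Leaving out replicate 2 at 6 h ended the call of bin 15 (adjusted p = 0.201).

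**Figure D4:**
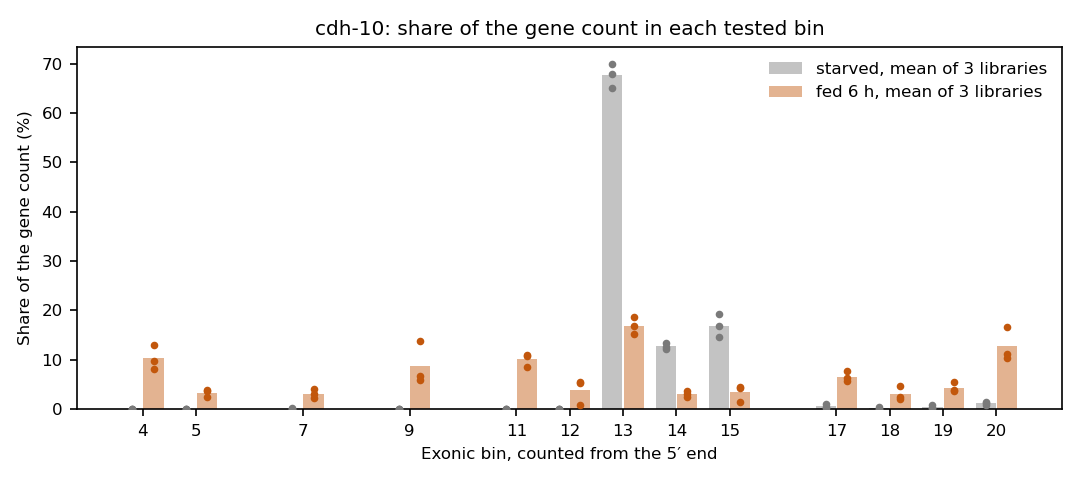
Share of the cdh-10 gene count in each of its 13 tested exonic bins, ordered from the 5′ end, with bars for the mean and points for each of 3 libraries per group. In starved larvae bins 13 to 15 hold 97.2% of the count on average, while at 6 h they hold 23.3%.

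In 3 genes of splicing proteins of the SR family, a bin held by some of the transcripts lost share while the gene rose. The bin of rsp-6 held by 3 of its 5 transcripts (bin 6 of 13 from the 5′ end, chromosome IV, 7790487 to 7790728) took 10.7%, 19.1% and 15.3% of the count in starved and 6.27%, 4.39% and 5.84% in fed libraries (adjusted p = 0.0133), while the gene rose by 0.94 ± 0.16. This call was lost with the 6 libraries alone, without starved replicate 2 and without replicate 2 at 6 h (adjusted p = 0.102, 0.154 and 0.136). rsp-3 and rsp-1 were chosen after their values were seen. Bin 7 of 8 of rsp-3 (chromosome III, 12686387 to 12686582) went from 9.80%, 17.5% and 7.91% to 3.62%, 2.89% and 3.46%, and bin 6 of 11 of rsp-1 (chromosome II, 11454558 to 11454940), which belongs to a single transcript, from 9.19%, 7.51% and 8.40% to 3.28%, 3.04% and 3.19%. In each of the 3 the groups did not overlap, which was a condition for naming a bin. tos-1, whose name stands for target of splicing, had its last bin (chromosome V, 9342768 to 9343297) go from 19.6% ± 1.87 to 7.99% ± 0.845 while the gene fell by 1.79 ± 0.17. Its call was lost with the 6 libraries alone, without replicate 1 and without replicate 2 at 6 h (adjusted p = 0.0887, 0.0859 and 0.0924).

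The remaining named bins belonged to col-107, lec-2, gfi-1 and spds-1. Bin 3 of 5 of col-107 (chromosome IV, 1549348 to 1549461), held by 1 of 2 transcripts, took 5.43%, 13.3% and 11.3% of the count in starved and 34.7%, 47.2% and 42.6% in fed libraries (adjusted p = 0.00222). Its own count fell from 2598 to 542 while that of the gene fell from 24420 to 1281, so the bin fell less than the rest. Bin 5 of 14 of lec-2, a galectin gene (chromosome II, 10012903 to 10015004), went from 38.998% ± 5.15 to 12.4% ± 3.50 while the gene fell by 1.84 ± 0.18. The last bin of gfi-1 (chromosome V, 6392519 to 6393069) went from 22.1%, 20.4% and 11.6% to 5.67%, 4.94% and 4.17%, and the gene rose by 1.15 ± 0.23. Bin 8 of 12 of spds-1, the spermidine synthase gene (chromosome II, 12809186 to 12809341), went from 15.5% ± 3.00 to 3.11% ± 0.381 as the gene rose from 12.2 to 57.7 CPM, and it stood at 2.57% and 2.89% by 1 h.

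**Figure D5:**
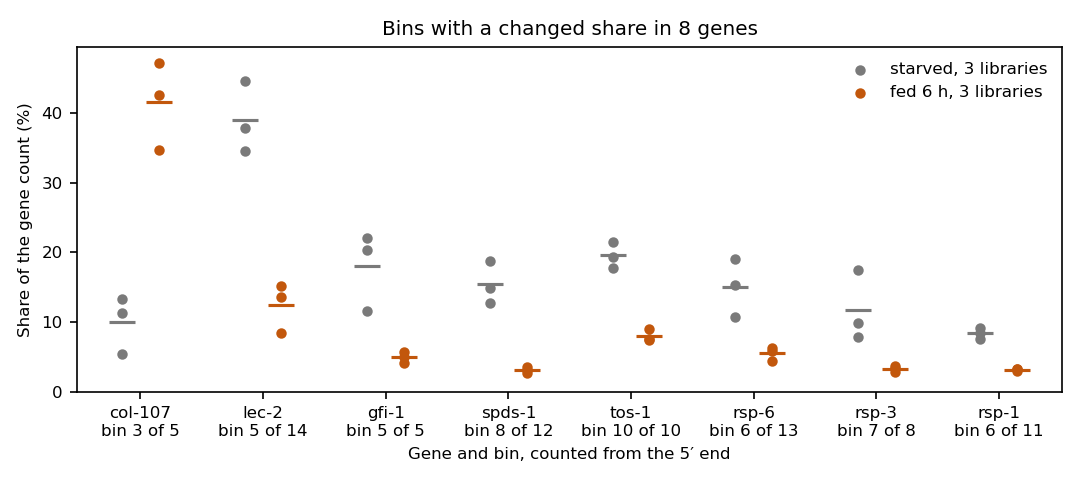
Share of the gene count in 1 called bin of each of 8 genes, with 1 point per library, 3 per group, and a bar at the mean. The bins were chosen to have starved and fed shares that do not overlap, and col-107 is the gene whose bin gained share, from 10.0% to 41.5%.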

How the data were processed

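Polyadenylated RNA of whole larvae was extracted with TRIzol, and inserts of 100 to 200 nt from 200 ng of RNA were amplified for 12 cycles and sequenced on a SOLiD 4 instrument, per the labels. Per the submitters' processing notes, the authors' alignment used TopHat together with Bowtie 0.12.7. The deposited values are whole read counts for every exonic bin in each library, which came from DEXSeq scripts run on WS210 gene models of detected protein-coding genes, per the deposited notes and the file headers. Reads across several bins add to every one of them. For strand use in counting, nothing was given in the sources used here, and 2292 of 108516 bins overlap a bin of the other strand. The deposited FPKM values are the authors' Cufflinks 1.0.2 estimates, 1 per gene and time with libraries pooled, per the deposited notes. The 13374 gene units include 257 of merged overlapping genes, which were tested for levels but not named. Of 13117 single genes, 12916 matched a RefSeq table of another build (WBcel235), used for symbols only, and 2573 called units had no symbol. Lines for reads outside the bins were left out of library sizes.

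The level test was edgeR 4.0.16 under R 4.3.3 (TMM factors, 0.813 to 1.20; filterByExpr, which removed 148 units; robust quasi-likelihood fit over all 10 libraries, 6 residual degrees of freedom) and bin use with diffSpliceDGE and Simes' method. log2 CPM used a prior count of 2. limma 3.58.1 and DESeq2 1.42.0 served as alternatives. The threshold was an adjusted p of 0.05. On simulated counts of 13167 genes for this comparison, 72.0% of 2-fold changes and 99.0% of 4-fold changes were recovered, and 86.3% of 4-fold bin changes over 11287 genes. The floor where a group has a count of 0 is 3 counts in the whole group. All replicate pairs differed beyond sampling noise, with chi-square divided by its degrees of freedom at 45.6 or more.

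The gene lists and the comparison were chosen with earlier results of these data known. Named genes were the 12 largest rises and falls with separate groups with mean log2 CPM at or over 4, up to 2 called members per list and direction at that level, members called against their list, the 10 highest per kb in each group, cell type markers, and the 12 bins with the largest change in share. A named bin had to be called, with shares of the groups that do not overlap. It also needed a length of 30 bases and a mean gene count of 500. Replicate numbers follow sample order and coincide with the barcode sets of the titles. Same-numbered starved and fed libraries deviated together from their group means (r = 0.170, 0.232 and 0.137 across genes), so a replicate block was fitted as an alternative.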

Additional observations from a re-analysis of the deposited data

How the results depend on the processing

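The count of called genes was 6873 and lay between 6044 (6 libraries alone) and 7451 (replicate block) over all alternatives, and between 6184 and 6609 when 1 library was left out, with both directions within 1.5 times. Scaling moved the directions: library totals alone gave 2345 higher and 4959 lower genes. With the replicate block, 3840 were higher, 3611 lower, 89 genes had changed bin use and 198 bins were called, which moved none of these counts by over 1.5 times. Changed bin use depended more on the fit. The 65 genes became 38 and the 154 bins 89 with the 6 libraries alone, and a gene-level F test called 205 genes. Leaving out 1 library gave 44 to 67 genes and 90 to 174 bins, the lowest without replicate 2 at 6 h. Of 2044 alternative values for 146 named genes, 1983 kept their direction and call, 61 (18 genes) lost the call and 0 reversed. Of 120 for the named bins, 113 kept it and 7 lost it. Of 1204 counts of list members, 67 moved by over 1.5 times. The causes were not tested. What depth limits in the bin test was not tested.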

Other observations

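In large families of regulators and receptors, a smaller share of members rose than the 27.0% of all units. Of 205 tested nuclear hormone receptor genes, 75 fell (36.6%, beside 25.0% of all units), 27 rose (13.2%) and 103 were not called. Their median was -0.36 beside -0.04 for all units. nhr-19 stood at 141, 151 and 147 CPM in starved and at 30.1, 26.0 and 27.9 CPM in fed libraries, a log2 change of -2.39 ± 0.14 (adjusted p = 1.21e-08), while nhr-91 rose from 8.71 ± 1.08 to 37.6 ± 3.21 CPM. Of 222 tested chemoreceptor genes, which are expressed in sensory neurons, 53 fell (23.9%, near the 25.0% of all units) and 12 rose (5.41%, beside 27.0%), with a median of -0.39. srdh-1 rose from 12.27 ± 1.48 to 72.6 ± 14.7 CPM. Of 70 homeobox genes, 21 fell and 5 rose (7.14%), with a median of -0.34. ceh-79 fell from 34.5 ± 4.94 to 12.8 ± 1.02 CPM. The 5 homeobox genes that rose were php-3, egl-5, pax-3, ceh-41 and ceh-89, and php-3 lost its call in 11 alternatives.

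Some genes went from near absence to a clear level, or the reverse. These were chosen after their values were seen. With under 1 CPM in every library of one group and over 10 in every library of the other, 10 genes were switched on and 9 off. Those with a symbol that came on were clec-258, dbd-18, dpy-9, ptr-10 and ugt-63. dbd-18 stood at 0.153, 0.242 and 0.0853 CPM in starved and at 27.6, 38.7 and 21.5 CPM in fed libraries, and was at 1.17 CPM after 3 h. Those that went off were clec-61, cpr-2, cyp-37B1, srh-2 and srlf-37. cyp-37B1, a cytochrome P450 gene, stood at 60.1, 54.5 and 51.5 CPM in starved and at 0.431, 0.370 and 0.548 CPM in fed libraries.

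By chromosome, the split of directions is given as values, with no test of a difference. On chromosome V, 22.2% of 2852 tested units rose and 31.4% fell, against 32.1% and 19.8% of 2012 on chromosome I and 32.6% and 21.7% of 2009 on chromosome III. On the X chromosome 23.5% rose and 24.0% fell, and its share of all counts was 14.02% ± 0.459 in starved and 13.03% ± 0.548 in fed libraries (exact permutation test, two-sided, p = 0.2, with 0.1 the smallest possible).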
